A study of Sus scrofa with 9 samples.

Results

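The let-7 miRNAs, their close relative miR-98, and the miR-99, miR-100 and miR-125 miRNAs that lie beside let-7 genes were followed in porcine granulosa cells under oxidative stress (OS). Every row of the deposited table whose name carried let-7, miR-98, miR-99a, miR-99b, miR-100, miR-125a or miR-125b was taken. Any arm of the hairpin and any length or substitution variant was included. Rows were picked by name alone, but the names were chosen with earlier results of these data known. This selection gave 42 of 1345 entries. An entry is a distinct small-RNA sequence with its own name. Of the 42 entries, 37 reached 10 normalized counts in 3 or more of the 9 libraries and were tested, together with the rest of the 757 entries that did so in the whole table. The other 5 entries are given as values only.

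Primary granulosa cells (PGCs), the follicle cells that surround the oocyte, came from ovaries of LandracexYorkshire crossbred sows and were cultured for 12 h with 0 μM H2O2 (CON group), 100 μM H2O2 (LOS group) or 300 μM H2O2 (MOS group), with 3 small-RNA libraries in each group. All groups shared the same serum-containing culture, and no age of the sows was given. The comparisons ask how a low and a high concentration of H2O2 changed the miRNA profile of the cells. Neither the labels nor the methods say whether the 3 libraries of a group came from separate cultures or animals, so p-values measure only the spread between these libraries, which may be technical. The RNA came from whole cultures, in which fewer cells of a type and less RNA per cell cannot be told apart.

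The normalized counts of a library summed to between 5578704 and 6084944 in CON, between 5701572 and 6098582 in LOS and between 4967112 and 5117859 in MOS, so the 3 MOS totals lay below the rest. The depth in reads, estimated from the step between low values, was 7793727 to 9321692 in MOS and 8827764 to 16764959 in the other libraries. Of 8 miRNAs listed as granulosa markers, 7 were detected and miR-383 was at 0, and their sum, nearly all of it miR-21, lay between 2304833 and 2882906 in CON, between 2605619 and 2878592 in LOS and between 1823640 and 2038317 in MOS. miR-202, a miRNA known from gonads, lay between 2984 and 3652 in CON, between 3688 and 3992 in LOS and between 1203 and 1791 in MOS. Other members of the granulosa list were higher in MOS. miR-221 lay between 23706 and 32053 in CON and between 43563 and 52645 in MOS. miR-222 lay between 7646 and 10325 in CON and between 14398 and 22673 in MOS. For miR-132, miR-212 and miR-224 the CON and MOS ranges overlapped. In LOS, miR-132 lay between 3171 and 3272, against 2030 to 2121 in CON. miR-212 lay between 959 and 1042 in LOS, against 574 to 627 in CON. The summed leukocyte markers (3 of 3 detected) lay between 2460 and 2678 in CON, between 2389 and 2821 in LOS and between 1005 and 2098 in MOS, and those of muscle (2 of 3, with miR-206 at 0) between 1677 and 1720, 1682 and 1989, and 976 and 1565. The liver miRNA miR-122 lay between 3.57 and 6.32 in CON, between 10.4 and 20.4 in LOS and between 22.8 and 64.8 in MOS. For these sums, and for miR-202, miR-221, miR-222 and miR-122, the MOS range thus did not overlap that of CON. Members of a list did not all move as its sum did. Leukocyte miR-150 was higher in MOS, at 27.4 to 53.5 against 17.1 to 24.0 in CON, whereas miR-142 and miR-223 were lower. Muscle miR-133 overlapped, at 380 to 536 in MOS against 439 to 515 in CON, whereas miR-1 was lower in MOS. Markers of stroma and theca (4 of 4 detected) summed to between 363181 and 399646 in CON, between 352571 and 376849 in LOS and between 235709 and 420438 in MOS, the endothelial miR-126 to between 3181 and 3586, 3123 and 3362, and 2382 and 3559, and red blood cell markers (3 of 3) to between 251 and 323, 254 and 285, and 294 and 775. Of the stroma list, miR-145 alone was lower in MOS without overlap, at 11604 to 20275 against 23726 to 28924 in CON. Of the red blood cell list, miR-486 was higher in MOS without overlap, at 105 to 128 against 57.8 to 85.9 in CON. The neuronal miRNA miR-124 was at 0 in all libraries. Their part in the values below was not tested.

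A miRNA is cut from a hairpin precursor, first by Drosha and then by Dicer, and 1 arm of the resulting duplex is usually kept while the other, here the lesser arm, is mostly degraded. The kept arm pairs with target mRNAs through its seed, bases 2 to 8. let-7 was found as a timing gene in Caenorhabditis elegans, and miR-125 is the mammalian relative of the worm's other timing miRNA, lin-4. In mammals let-7 restrains LIN28, HMGA2 and RAS genes and is abundant in differentiated cells, LIN28 proteins in turn block the processing of let-7 precursors, and miR-99 and miR-100 are known to target the kinase mTOR. Many let-7 genes stand in clusters with miR-99 or miR-100 and miR-125, which can be made from a shared primary transcript.

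In the Sscrofa11.1 annotation, used here only for which genes neighbour each other, 15 genes of these names were listed. Genes less than 50 kb apart formed the neighbourhoods MIR99A with MIRLET7C, MIR125A with MIRLET7E and MIR99B, MIR125B-1 with MIRLET7A-1 and MIR100, MIRLET7A-2 with MIRLET7F-2 and MIRLET7D, and MIR98 with MIRLET7F-1. MIRLET7G and MIRLET7I stood alone. Because let-7a, let-7f and miR-125b are made by more than 1 gene with the same mature main arm, their counts mix loci. Numbered lesser arms of let-7a and let-7f take their gene number from a human or opossum name. Those numbers were not matched to the pig symbols, so they do not place these lesser arms in a neighbourhood. No genome build is named for the deposited table in the sources used here.

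The main arms fell into 3 seed groups, shown here for the cluster partners. Sequences are those of the deposited table, 5′ to 3′, written with T, and capitals mark the seed.
ssc-let-7a: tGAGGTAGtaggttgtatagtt
ssc-let-7c: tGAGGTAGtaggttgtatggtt
ssc-let-7e: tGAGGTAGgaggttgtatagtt
ssc-miR-98: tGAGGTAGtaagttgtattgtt
ssc-miR-99a: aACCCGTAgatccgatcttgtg
ssc-miR-99b: cACCCGTAgaaccgaccttgcg
ssc-miR-100: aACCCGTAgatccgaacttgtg
ssc-miR-125a: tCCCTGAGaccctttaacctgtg
ssc-miR-125b: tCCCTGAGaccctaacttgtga
The let-7 seed GAGGTAG was carried by 13 entries, the miR-99 and miR-100 seed ACCCGTA by 3 and the miR-125 seed CCCTGAG by 4, and no entry outside the selected names carried any of these seeds. Several mature forms differ by a single base, with positions counted from 1 at the 5′ end and the base of the first-named miRNA first. let-7a and let-7c differ by A19G, let-7a and let-7e by T9G, let-7a and let-7f by G12A, let-7b and let-7c by G17A, and miR-100 and miR-99a by A16T. Since the authors' matching allowed a mismatch, a sequencing error could move reads between such pairs.

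The lesser arms do not share these seeds. The 5 that the results below turn on are shown with their seeds in capitals.
hsa-miR-125b-1-3p: aCGGGTTAggctcttgggagct
hsa-let-7e-3p: cTATACGGcctcctagctttcc
hsa-let-7c-3p: cTGTACAAccttctagctttcc
hsa-miR-98-3p_1ss22CT: cTATACAActtactactttcct
hsa-let-7a-2-3p: cTGTACAGcctcctagctttcc
Prefixes give the species whose name was matched (ssc pig, hsa human, chi goat, mmu mouse, rno rat, sha Tasmanian devil, mdo opossum), and the suffixes L, R and ss mark a changed 5′ end, a changed 3′ end with the number of bases, and a substitution. The seed TATACAA of miR-98-3p is shared with 3 further lesser arms, let-7a-3p, let-7b-3p and let-7f-1-3p, and TGTACAG of let-7a-2-3p with let-7g-3p.

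The let-7, miR-98, miR-99, miR-100 and miR-125 entries together took 12.9, 10.3 and 11.6% of all normalized counts in the CON libraries, 11.7, 13.3 and 11.4% in LOS, and 14.9, 14.8 and 13.96% in MOS. Each MOS library thus gave them a larger share than any CON or LOS library. Their summed normalized counts overlapped between the groups, at 678478 ± 62313 in CON, 722900 ± 74951 in LOS and 734504 ± 29634 in MOS (SD, n = 3), while the library totals were lowest in MOS. The let-7 seed group took 5.65% ± 0.255 of the total in CON, 5.25% ± 0.544 in LOS and 6.51% ± 0.102 in MOS. For the miR-99 and miR-100 seed the shares were 2.76% ± 0.464, 3.14% ± 0.375 and 3.67% ± 0.379, and for the miR-125 seed 2.996% ± 0.657, 3.53% ± 0.391 and 4.11% ± 0.557. These sums are descriptions without a test.

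Of the 25 main-arm entries, 14 were reference forms, the most abundant entry of each mature main arm. Among them miR-125b was the most abundant, with normalized counts of 162393, 107710 and 146196 in CON, 145032, 200469 and 167683 in LOS, and 200632, 160460 and 152487 in MOS, and it ranked 4 among all 1345 entries by mean. It was followed by let-7a, at 77433 ± 992 in CON (SD, n = 3), then by miR-100, miR-99a, let-7f, miR-99b and let-7g, whose CON means lay between 50931 and 57613 and whose order changed from group to group. miR-125a followed at 33424 ± 5636 in CON, let-7b at 34270 ± 1034 and let-7i at 28228 ± 750. The least abundant main arms were let-7d at 20826 ± 1042, let-7e at 20154 ± 100, miR-98 at 17679 ± 755 and let-7c at 13716 ± 471. All 14 stood among the 47 most abundant entries of the table.

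**Figure D1:**
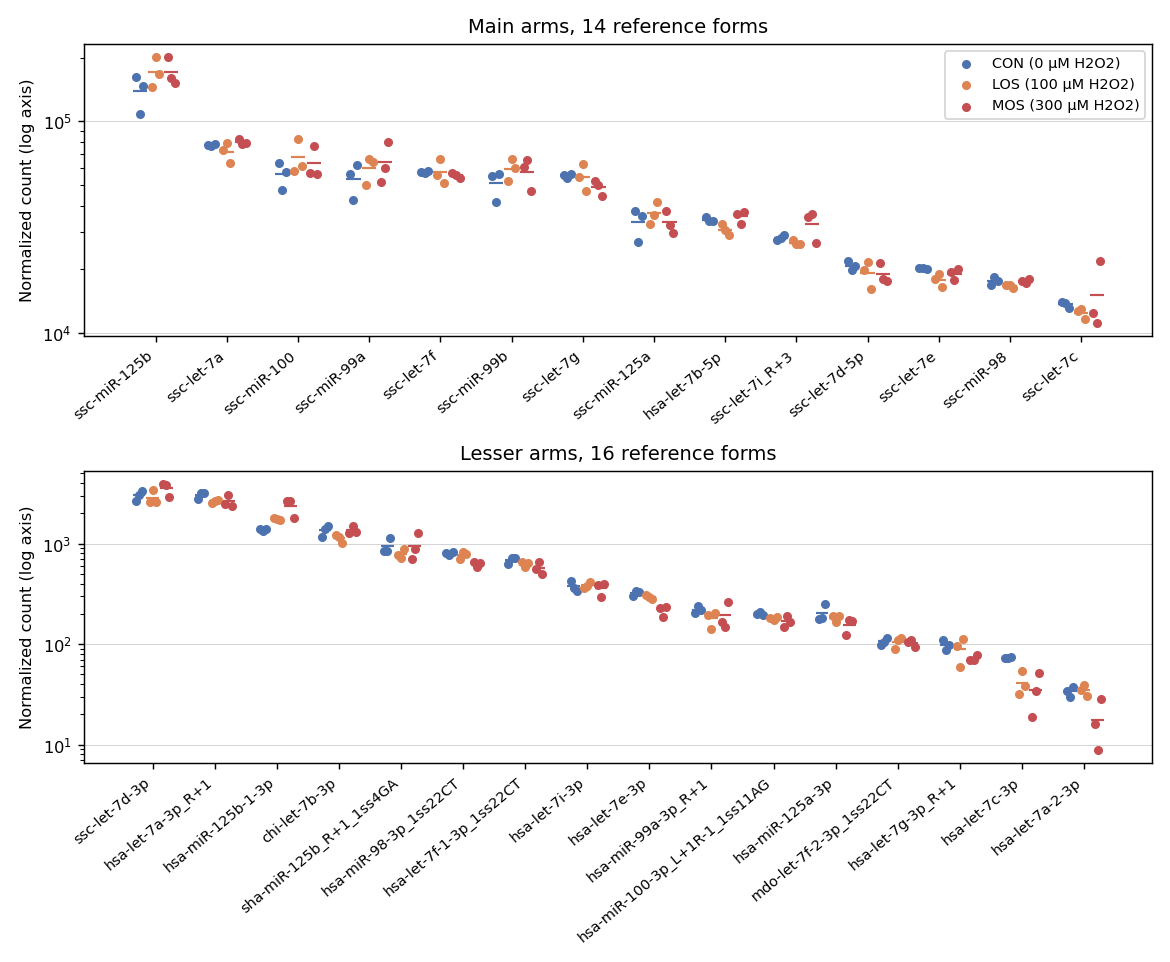
Normalized count of the 14 main-arm and 16 lesser-arm reference forms in each of the 9 libraries, on log axes, with CON, LOS and MOS as colours, points for libraries and short bars for group means. Main arms lie between 11154 and 200632 and lesser arms between 8.92 and 3937, and in CON the let-7 points are closer together than those of miR-99, miR-100 and miR-125.

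Within CON the spread between libraries was smaller for the let-7 miRNAs than for their cluster partners, and in the other groups the ranges overlapped. The coefficient of variation over the CON libraries was 0.497 to 5.00% for the 9 let-7 and miR-98 main arms, and 14.5 to 20.2% for the 5 main arms of miR-99, miR-100 and miR-125. In all 5 of the latter the lowest CON value was that of replicate 2, for example 47383 for miR-100 against 63422 and 57744. In LOS the spread of the let-7 and miR-98 arms was 2.05 to 14.7% and that of their partners 12.1 to 19.6%, with replicate 3 the lowest of the group for 9 of 9 let-7 and miR-98 arms. In MOS the spreads were 1.96 to 38.6% and 12.3 to 22.9%. let-7e, the tightest of all in CON, had 20217, 20206 and 20038 there and 18021, 19011 and 16587 in LOS.

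At 100 μM H2O2 no let-7, miR-98, miR-99, miR-100 or miR-125 entry passed the test. With limma and Benjamini-Hochberg adjustment over 757 entries, 0 of 37 passed an adjusted p of 0.05 in LOS against CON, where 2.91% of all tested entries did (2.51% higher and 0.396% lower), and 2 of 37 had an unadjusted p under 0.05. Without MOS replicate 3, 1 of 37 passed, against 37 of 687 entries in the whole table. That library enters only through the filter and the shared estimate of the spread. The 2 entries were miR-125b-1-3p, a lesser arm, with a log2 fold change of 0.35 ± 0.15 (SE), and let-7c-3p, with -0.84 ± 0.35 (limma adjusted p = 0.426 and 0.430). Values of the LOS and CON groups did not overlap for 9 of 37 entries, 8 of them lower in LOS, against 20.6% of all tested entries. Over the 37 entries the median log2 fold change was -0.05, and over all tested entries it was 0.

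Among the main arms at 100 μM, the log2 fold changes of the 9 let-7 and miR-98 arms lay between -0.18 (let-7e) and -0.01 (let-7f), and those of the 5 miR-99, miR-100 and miR-125 arms between 0.14 (miR-125a) and 0.31 (miR-125b). The sign of let-7f turned with median-of-ratios factors. The 95% intervals of these 14 differences ran together from -0.62 to 0.72. let-7c, in the neighbourhood of miR-99a, had 14062, 13907 and 13180 in CON and 12683, 13010 and 11655 in LOS, so its groups did not overlap, with a log2 fold change of -0.14 ± 0.21 and a limma adjusted p of 0.959.

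At 300 μM H2O2, 5 of 37 entries changed in MOS against CON, 2 higher and 3 lower, while 29.3% of all tested entries did, 20.2% higher and 9.11% lower. Of the 5, 4 were lesser arms, among 16 tested, and 1 was a length variant of miR-125b, among 7 tested main-arm variants. None of the 14 main-arm reference forms passed, and 0 of 14 had an unadjusted p under 0.05. With the libraries scaled to equal totals, which moved the median of all entries by 0.22 on the log2 scale, 3 of 37 were called, all higher, and no entry was called lower. Leaving out a single library gave from 1 call, without CON replicate 2, to 7 calls, without MOS replicate 3. In the whole table these settings called 146 of 748 and 283 of 687 entries. Groups did not overlap for 12 of 37 entries, 3 higher and 9 lower in MOS, against 41.3% of all tested entries. The median log2 fold change was -0.01 over the 37 and 0.07 over all tested entries.

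miR-125b-1-3p, the lesser arm of the miR-125b-1 hairpin, rose. Its normalized counts were 1393, 1346 and 1400 in CON, 1796, 1759 and 1735 in LOS, and 2648, 2653 and 1808 in MOS. No LOS library reached down to a CON library and no MOS library reached down to a LOS library, although replicate 3 of MOS stood only just above the LOS values. The log2 fold change was 0.76 ± 0.15 (SE) in MOS against CON, with a limma adjusted p of 0.00365. Its main arm, miR-125b, had a log2 fold change of 0.31 ± 0.18 in the same comparison, with a limma adjusted p of 0.221.

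The other entry that rose was ssc-miR-125b_R+1, the mature miR-125b with an extra 3′ base, here in capitals.
ssc-miR-125b_R+1: tccctgagaccctaacttgtgaG
It had 260, 169 and 277 in CON, 273, 299 and 347 in LOS, and 509, 523 and 280 in MOS, so the CON and MOS groups were separated by the gap between 277 and 280 alone. The log2 fold change was 0.87 ± 0.27, with a limma adjusted p of 0.0385. Set against the reference form in the same library, the longer form made up 0.157 to 0.189% of miR-125b in CON, between 0.149 and 0.207% in LOS and between 0.183 and 0.326% in MOS, ranges that overlapped. The call was lost in 12 of 19 alternatives, among them the sum of the entries that bear the name miR-125b, which is mostly the reference form and gave a log2 fold change of 0.31 and a limma adjusted p of 0.228.

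Lesser arms of let-7e, let-7c and miR-98 fell. hsa-let-7e-3p had 302, 339 and 332 in CON, 306, 294 and 280 in LOS, and 231, 185 and 235 in MOS, and each MOS library lay below each of the other 6. Its log2 fold change was -0.59 ± 0.14, with a limma adjusted p of 0.0115. The call ended with equal library totals, at a limma adjusted p of 0.0662, and without CON replicate 2, at 0.0514. The main arm let-7e, at 19410, 17808 and 20077 in MOS, had a log2 fold change of -0.08 ± 0.09 (limma adjusted p = 0.543).

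hsa-let-7c-3p had 72.04, 72.3 and 74.9 in CON, 32.0, 54.3 and 38.0 in LOS, and 18.7, 34.4 and 52.0 in MOS. Both H2O2 groups lay below CON without overlap and overlapped each other. The log2 fold change in MOS against CON was -1.15 ± 0.35 on the log2 scale of the count plus 1, with a limma adjusted p of 0.0343. It was -0.77 without MOS replicate 1 and -1.49 without MOS replicate 3, and the call was lost in 8 of 20 alternatives, equal library totals among them (limma adjusted p = 0.0673).

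The lesser arm of miR-98, hsa-miR-98-3p_1ss22CT, had 800, 771 and 821 in CON, 709, 820 and 784 in LOS, and 656, 590 and 649 in MOS, with all MOS values below all others. Its log2 fold change was -0.34 ± 0.11, with a limma adjusted p of 0.0427, and the call was lost in 15 of 20 alternatives, equal library totals among them (log2 fold change -0.13, limma adjusted p = 0.375). hsa-let-7a-2-3p, at 34.1, 29.5 and 37.9 in CON, 34.7, 39.0 and 30.4 in LOS, and 16.2, 8.92 and 28.2 in MOS, did not pass. It had a log2 fold change of -1.02 ± 0.37 and a limma adjusted p of 0.0633, which was 0.00483 without MOS replicate 3.

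**Figure D2:**
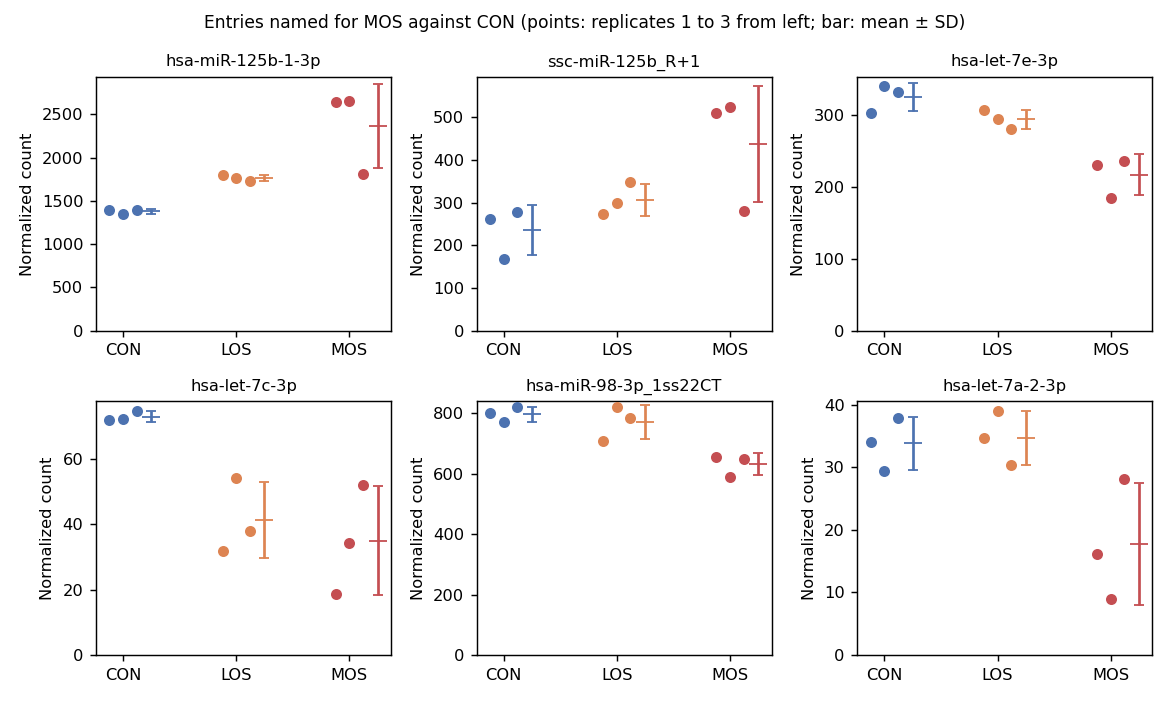
Normalized count in each library for the 5 entries called in MOS against CON and for hsa-let-7a-2-3p, which was not, with axes that start at 0, points for replicates 1 to 3 from left to right and bars for mean ± SD. hsa-miR-125b-1-3p steps up from CON to LOS to MOS, and MOS replicate 3 is the library nearest to CON for hsa-miR-125b-1-3p, ssc-miR-125b_R+1, hsa-let-7c-3p and hsa-let-7a-2-3p.

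Among the main arms at 300 μM, log2 fold changes ran from -0.18 ± 0.12 for let-7g to 0.31 ± 0.18 for miR-125b. The 95% intervals of the 14 differences ran together from -0.45 to 0.72. let-7g had 55862, 54042 and 56623 in CON and 52137, 50204 and 44561 in MOS, and let-7f had 57481, 56919 and 58440 in CON and 56689, 55914 and 54107 in MOS, so in both the groups did not overlap. With equal library totals the log2 fold changes of let-7d, let-7e, let-7f, let-7g and miR-98 changed sign, to between 0.03 and 0.21. let-7i had 27552, 28098 and 29034 in CON, 27417, 26359 and 26355 in LOS, and 35400, 36520 and 26483 in MOS, where replicate 3 stood at the LOS level. Its log2 fold change of 0.20 ± 0.12 had a limma adjusted p of 0.238, which became 0.00502 without MOS replicate 3 and 0.0333 with equal library totals.

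**Figure D3:**
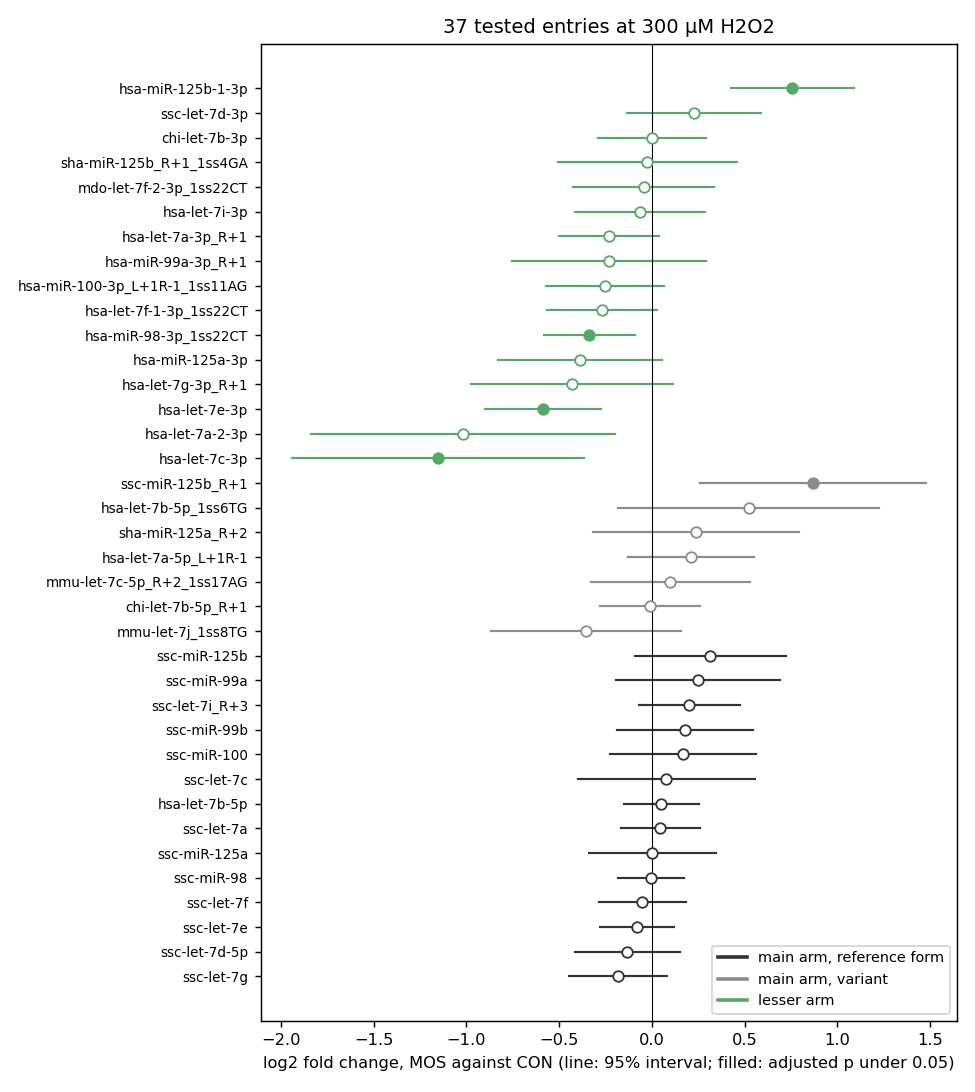
Log2 fold change in MOS against CON for the 37 tested entries, with 95% intervals as lines and filled points for an adjusted p under 0.05. The 14 main-arm reference forms lie between -0.18 and 0.31 with open points, and 13 of 16 lesser arms lie below 0, against 10 of 16 with equal library totals. Of all 757 tested entries, 341 lie below 0.

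Of 16 tested lesser arms, 13 had a log2 fold change below 0 at 300 μM, with a median of -0.24. Over all 757 tested entries 341 lay below 0, with a median of 0.07. When libraries were scaled to equal totals, 10 of 16 lesser arms lay below 0, with a median of -0.03, against a median of 0.29 over all entries. Lesser arms of other hairpins were not counted. Of 14 main-arm reference forms, 5 lay below 0, with a median of 0.05, and 0 of 14 with a median of 0.26 under equal totals. The lesser arms not below 0 with the deposited scaling were miR-125b-1-3p, let-7d-3p at 0.23 ± 0.16, and let-7b-3p, at 0.00 ± 0.13. No test was made on these counts.

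In MOS against LOS, 1 of 37 entries was called, let-7e-3p, with a log2 fold change of -0.44 ± 0.14 and a limma adjusted p of 0.0384, while 29.7% of all tested entries were called. The call was lost in 11 of 20 alternatives. miR-125b-1-3p had 0.40 ± 0.15 with a limma adjusted p of 0.0644, and let-7a-2-3p had -1.06 ± 0.37 with 0.0551. Of the main arms, let-7i (0.28 ± 0.12) and let-7b (0.21 ± 0.09) had an unadjusted p under 0.05 and limma adjusted p-values of 0.112 and 0.113. Groups did not overlap for 8 of 37 entries, against 41.1% of all tested entries. Equal library totals turned the split to 9 higher and 0 lower, with the median of all entries moved by 0.24. Without MOS replicate 3, 7 of 37 were called, and without any other single library 0 were.

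The ratio of main to lesser arm was then compared within each library, where the scaling of libraries cancels. It was formed for 17 hairpins, each with the most abundant entry of either arm. For miR-99b the other arm was a predicted arm, ssc-mir-99b-p3, whose lower-case name put it outside the selection. Averaged over the 9 libraries, the main arm exceeded the lesser arm by between 6.26-fold for let-7d and 2656-fold for let-7a-2. let-7a, let-7b and miR-98 had folds of 27.4, 26.1 and 23.6, whereas miR-99a and miR-100 had 299 and 341, and let-7g had 610. In the hairpins that share a main arm with another gene, let-7a, let-7a-2, let-7f-1, let-7f-2, miR-125b-1 and miR-125b-2, the numerator counts both genes.

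In MOS against CON the arm ratios did not overlap for 7 of 17 hairpins, against 39.0% of the 146 hairpins of the table with both arms. let-7a-2, let-7c, let-7e, miR-98, miR-99a and miR-100 had a higher ratio of main to lesser arm in MOS, and let-7d a lower ratio. The median log2 difference was 0.27 over the 17 hairpins and 0.00269 over the 146. By the exact 2-sided permutation test, which cannot give a p under 0.1 with 3 libraries against 3, none of 51 comparisons passed, and the smallest adjusted p was 0.392.

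For let-7c the log2 ratio was 7.59, 7.57 and 7.44 in CON, 8.59, 7.88 and 8.22 in LOS, and 9.30, 8.30 and 8.69 in MOS, which is a mean fold of 188 in CON, 301 in LOS and 432 in MOS. Every H2O2 library lay above every CON library. The log2 difference was 1.23 ± 0.30 (SE) in MOS against CON, with an exact permutation p of 0.1, and 0.70 ± 0.21 in LOS against CON, also with an exact p of 0.1. let-7e had log2 ratios of 6.06, 5.89 and 5.91 in CON, 5.88, 6.01 and 5.88 in LOS, and 6.39, 6.58 and 6.41 in MOS, so only MOS stood apart. Its mean fold was 62.1, 60.9 and 88.1, and its log2 difference in MOS against CON was 0.51 ± 0.08, with an exact p of 0.1.

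miR-98 also had a higher ratio in MOS, with log2 ratios of 4.40, 4.58 and 4.42 in CON, 4.57, 4.36 and 4.37 in LOS, and 4.75, 4.87 and 4.79 in MOS and a difference of 0.33 ± 0.07 (exact p = 0.1). let-7a-2 had 11.10, 11.30 and 10.98 in CON, 10.995, 10.94 and 10.99 in LOS, and 12.22, 12.95 and 11.41 in MOS, with a difference of 1.07 ± 0.45 that was 0.69 without MOS replicate 2 and 1.46 without MOS replicate 3. let-7d, which has the most abundant lesser arm in MOS, went the other way, from 3.04, 2.69 and 2.64 in CON and 2.93, 2.68 and 2.64 in LOS to 2.45, 2.23 and 2.61 in MOS, a difference of -0.36 ± 0.17. The ratio of miR-125b to miR-125b-1-3p was 6.86, 6.32 and 6.71 in CON, 6.33, 6.83 and 6.59 in LOS, and 6.24, 5.92 and 6.40 in MOS, which overlapped.

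A limma fit on the arm ratios of all 146 hairpins was added after the data were seen. It called let-7c (adjusted p = 0.0207) and let-7e (adjusted p = 0.0374) in MOS against CON, where it called 12.3% of all hairpins. In MOS against LOS it called let-7a-2 (adjusted p = 0.0376) and let-7e (adjusted p = 0.0284), against 16.4% of all. In LOS against CON none of the 17 passed, against 1.37%. Ratios did not overlap for 2 of 17 hairpins in LOS against CON, let-7c and miR-100, against 24.7% of the 146, and for 4 of 17 in MOS against LOS, against 33.6%.

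**Figure D4:**
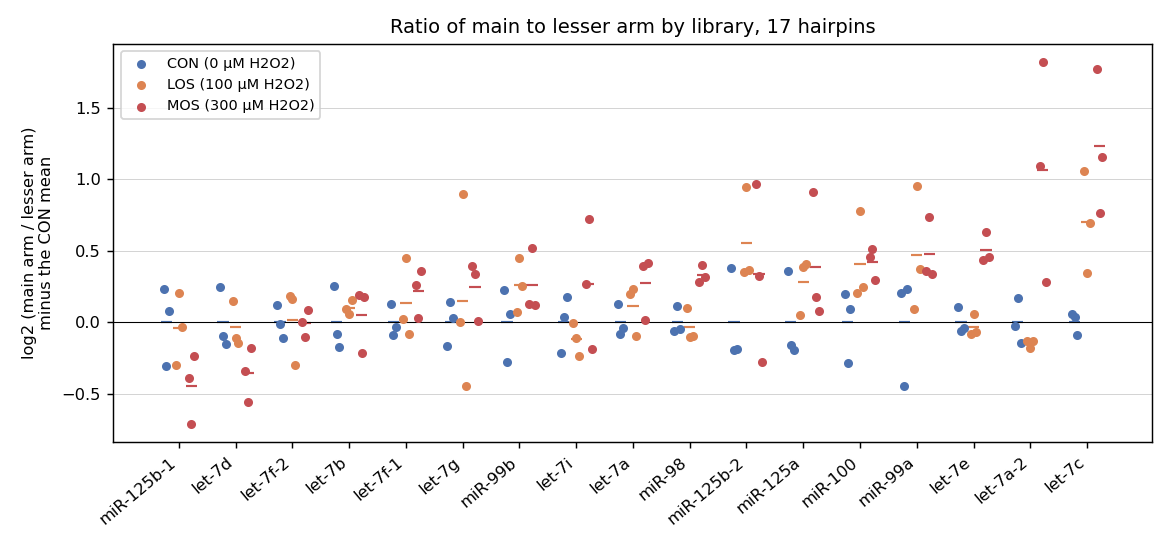
Log2 ratio of main to lesser arm in each library, less the mean of the CON libraries, for 17 hairpins in the order of their MOS mean. Points are libraries and short bars group means. The 3 MOS points of let-7c, let-7e and miR-98 lie above all 3 CON points, and those of let-7d below.

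Cluster partners were compared as log2 ratios of their main arms within each library, for 7 pairs in 3 comparisons. In the neighbourhood of let-7e, miR-99b and miR-125a, the log2 ratio of let-7e to miR-99b was -1.45, -1.04 and -1.48 in CON, -1.54, -1.81 and -1.86 in LOS, and -1.64, -1.88 and -1.22 in MOS. LOS lay below CON without overlap, by 0.41 ± 0.17 (difference -0.41, exact p = 0.1, adjusted p = 0.70), while MOS covered most of the range. let-7e over miR-125a was -0.89, -0.42 and -0.84 in CON, and its difference was -0.32 ± 0.21 in LOS (exact p = 0.2) and -0.08 ± 0.19 in MOS (exact p = 0.6). miR-99b over miR-125a varied least in CON, at 0.55, 0.62 and 0.65, and was 0.67, 0.89 and 0.53 in LOS and 0.68, 1.02 and 0.66 in MOS. In MOS it lay above CON without overlap, by 0.18 ± 0.12, with an exact p of 0.1.

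In the neighbourhood of let-7c and miR-99a, both main arms were highest in MOS replicate 3. let-7c had 12441, 11154 and 21853 in MOS, and miR-99a had 51746, 60070 and 80274. Of the MOS libraries it was also the highest for let-7c-3p and for miR-99a-3p, the latter at 167, 149 and 263. So it was for the lesser arm of miR-125b-2, sha-miR-125b_R+1_1ss4GA, at 702, 877 and 1264. No gene of that number was among those listed in the annotation, so this entry was not placed in the neighbourhood. In the same libraries the 4 markers of stroma and theca did not move as one. miR-143 had 221155, 279478 and 399889 and miR-145 had 13988, 11604 and 20275, both highest in MOS replicate 3, whereas miR-199 had 542, 514 and 261 and miR-214 had 24.9, 28.0 and 13.0, both lowest there. Their part in these values was not tested. The log2 ratio of let-7c to miR-99a was -2.002, -1.61 and -2.24 in CON and -2.06, -2.43 and -1.88 in MOS, with a difference of -0.17 ± 0.25 (exact p = 0.5). In LOS the difference was -0.31 ± 0.24 (exact p = 0.3).

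let-7c itself had a log2 fold change of 0.08 ± 0.21 in MOS against CON, which was -0.22 without MOS replicate 3. For let-7a over miR-100, a pair in which let-7a counts more than 1 gene, the log2 ratio was 0.28, 0.69 and 0.44 in CON, 0.32, -0.07 and 0.05 in LOS, and 0.52, 0.04 and 0.49 in MOS. The difference was -0.37 ± 0.17 in LOS (exact p = 0.2) and -0.12 ± 0.20 in MOS (exact p = 0.7). The 5 ratios of a let-7 arm to a miR-99, miR-100 or miR-125 arm had a negative difference in LOS against CON, between -0.45 and -0.31. These ratios share members and CON libraries, and replicate 2 of CON, which was lowest for all miR-99, miR-100 and miR-125 main arms, gave the highest CON ratio in each.

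Of 21 partner comparisons, the groups did not overlap in 2. No share over other pairs of miRNAs was computed to set beside this count. Groups without overlap have an exact p of 0.1 in a single comparison. The smallest adjusted p of the exact test was 0.70, so no pair was shown to part. The smallest p the exact test can give is 0.1, so that this test could not have passed the threshold. limma was not run on the partner ratios.

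**Figure D5:**
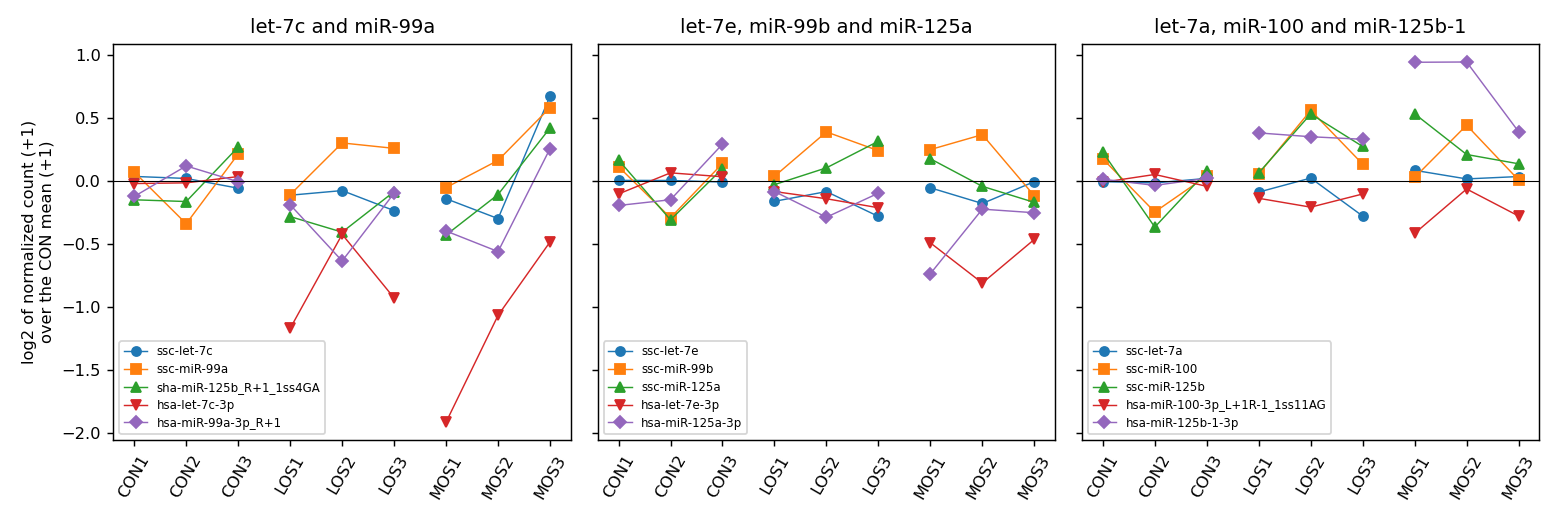
Log2 of the normalized count plus 1 in each library over that of the CON mean, for main and lesser arms in 3 gene neighbourhoods. The left panel also holds sha-miR-125b_R+1_1ss4GA, which the annotation did not place there. Points are libraries, joined within a group for the eye only. In the left panel the entries share their highest MOS value in replicate 3, and hsa-miR-125b-1-3p in the right panel stands above 0 in all LOS and MOS libraries.

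Variant forms were sorted by the mature miRNA their sequence matched best. The names of 4 of the 12 variants differed from that miRNA. mmu-let-7j_1ss8TG was let-7i with 2 extra 3′ bases, mmu-let-7c-5p_R+2_1ss17AG was let-7b with 2, and sha-miR-125a_R+2 was miR-125b with 2, as their sequences show, with the extra bases in capitals.
mmu-let-7j_1ss8TG: tgaggtagtagtttgtgctgttAT
mmu-let-7c-5p_R+2_1ss17AG: tgaggtagtaggttgtgtggttTT
sha-miR-125a_R+2: tccctgagaccctaacttgtgaAA
chi-let-7b-5p_R+1: tgaggtagtaggttgtgtggttA
The last, let-7b with a 3′ A, was the most abundant variant, at 12.2 to 12.9% of let-7b in CON, between 13.5 and 14.6% in LOS and between 10.9 and 12.5% in MOS. mmu-let-7j_1ss8TG was 0.245 to 0.401% of let-7i in CON, between 0.351 and 0.450% in LOS and between 0.180 and 0.299% in MOS, so that LOS and MOS did not overlap and CON overlapped both. Its log2 fold change was -0.36 ± 0.23 in MOS against CON (limma adjusted p = 0.266). sha-miR-125a_R+2 was 1.11 to 1.66% of miR-125b over the 9 libraries.

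The entry hsa-let-7a-5p_L+1R-1 begins a base earlier than let-7a, so that its seed becomes TGAGGTA, and it held 0.251 to 0.332% of the let-7a count over the 9 libraries. Its log2 fold change was 0.21 ± 0.15 in MOS against CON. Substituted forms were rarer. The fourth variant under another name, mmu-let-7j_R-2, is let-7i with the change G8T in its seed, here in capitals.
mmu-let-7j_R-2: tgaggtaTtagtttgtgctgtt
hsa-let-7b-5p_1ss6TG: tgaggGagtaggttgtgtggtt
mmu-let-7j_R-2 had 0, 4.46 and 0 in CON, 0, 4.24 and 3.80 in LOS, and 6.23, 11.5 and 7.58 in MOS, below the level tested. That is 17.6, 31.4 and 28.6 per 100000 of let-7i in MOS, against 0, 15.9 and 0 in CON and 0, 16.1 and 14.4 in LOS, so that its 3 nonzero values in CON and LOS stood close to the lowest MOS value. Without the filter on low values, limma gave a log2 fold change of 2.38 ± 0.83 in MOS against CON on the scale of the count plus 1, with an adjusted p of 0.0750. hsa-let-7b-5p_1ss6TG, let-7b with T6G, was 32.1 to 50.4 per 100000 of let-7b in CON and 51.2 to 58.4 in MOS, with 45.9, 33.1 and 72.2 in LOS, where replicate 3 stood above every MOS library, and had a log2 fold change of 0.52 ± 0.31 (limma adjusted p = 0.235). Of the remaining untested entries, hsa-let-7b-5p_R-1_1ss21TG had at most 11.2, hsa-let-7b-5p_L-3 at most 5.42, rno-miR-125b-2-3p_R-3 at most 5.10 and hsa-let-7a-5p_L+1R-4 at most 3.12, and the last shared its 9 values with another entry of the table.

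Other widely expressed families, fitted in the same table, gave a comparison. In MOS against CON, 2 of 3 miR-10 entries, 3 of 6 miR-26 entries and 2 of 11 miR-30 entries were called lower and none higher, with median log2 fold changes of -0.54, -0.50 and -0.26, against 9.11% lower and 20.2% higher over all tested entries. With equal library totals the lower calls were 0, 2 and 0, 1 miR-30 entry was called higher, and the medians were -0.33, -0.29 and -0.05. Over all 764 entries tested with that scaling, 32 were called lower and 200 higher, with a median of 0.29. The 37 entries here had 3 lower and 2 higher and a median of -0.01, and 0 lower and 3 higher with equal totals. No test was made between the families.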

How the data were processed

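The authors filtered their reads against junk, repeats and other RNA classes with ACGT101-miR, matched sequences of 18 to 26 nt to miRBase by BLAST with length variation and a mismatch allowed, and deposited a signal, the normalized count of each entry in each library. How the counts were normalized, and on which genome build, is not given in the sources used here, and the labels and the methods name different amounts of input RNA. Raw reads were not analysed here.

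Depth was estimated as the library total over the step of which at least 98.3% of values under 400 were whole multiples within 0.01. Values were transformed to log2 of the count plus 1 and fitted with limma 3.58.1 (trend, R 4.3.3) over all 9 libraries and the 757 entries with at least 10 in at least 3 libraries, with Benjamini-Hochberg adjustment per comparison and a threshold of 0.05. Fold changes of low entries are understated on this scale. The fit was tested on simulated data. Arm and partner ratios used the same pseudocount and an exact 2-sided permutation test over the 10 splits of 3 against 3, adjusted over 51 and 21 comparisons. Python 3.11.15 with scipy 1.17.1 was used for ratios. Named entries were the most abundant entry of each main and lesser arm, every called entry, the largest changes of a comparison and mmu-let-7j_R-2. The members, lists and rules were chosen with earlier results of these data known. Alternatives were limma without trend, equal totals, median-of-ratios factors, pseudocounts of 0.5 and 10, no filter, a minimum of 50, the 6 libraries of a comparison, a replicate block, each library left out and variants summed by name. Variants summed by sequence and limma on arm ratios were added after the data were seen.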

Additional observations from a re-analysis of the deposited data

Results flagged for a closer look

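The effect of 300 μM H2O2 on hsa-let-7e-3p differed from that of 100 μM, by -0.44 on the log2 scale (limma adjusted p = 0.0384). This call was lost in 11 of 20 alternatives, 8 of them among the 9 that leave out a single library, with limma adjusted p-values of 0.0711 with the replicate block and 0.282 with equal library totals. Both effects were measured against the same CON libraries. mmu-let-7j_R-2, let-7i with a substitution in its seed, was below the level tested and had a MOS mean of 8.43 normalized counts against 1.49 in CON, with each MOS library above each CON library. Without the filter on low values limma gave a log2 fold change of 2.38 with an adjusted p of 0.0750, which did not pass. Its cause was not tested.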

How the results depend on the processing

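The number of called entries among the 37 in MOS against CON (5) was 3 without the trend, 3 with equal totals and 2 with the 6 libraries of the comparison. In the whole table these settings called 198 of 757, 232 of 764 and 176 of 733 entries. In LOS against CON (0) the number was 2 with 6 libraries, against 44 of 662 in the whole table. In MOS against LOS (1) the number was 9 with equal totals, 3 with median-of-ratios factors, 2 with a pseudocount of 10 and 0 with 6 libraries. The whole table then had 273 of 764, 220 of 756, 237 of 757 and 184 of 733 called. Leaving out single libraries gave 0 to 1 calls in LOS against CON, 1 to 7 in MOS against CON and 0 to 7 in MOS against LOS. Over the whole table those settings called 14 to 37, 94 to 283 and 113 to 270 entries. Arm ratios without overlap, with single libraries left out, numbered 2 to 7, 7 to 11 and 4 to 7, and partner ratios 1 to 5, 1 to 3 and 0 to 1. Leaving out a library can only keep or raise such a count, so these ranges do not test how stable it is. Shares over all hairpins or other pairs were not computed for these settings. limma on the arm ratios called 2 of the 17 hairpins in MOS against CON and 2 in MOS against LOS, against 18 and 24 of all 146. The call of miR-125b-1-3p in MOS against CON was kept in all 20 alternatives, with limma adjusted p-values from 5.09e-05 to 0.0232.

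Equal totals reversed let-7f (0.16), let-7g (0.028), let-7e (0.13), let-7d (0.080) and miR-98 (0.21) in MOS against CON, and median-of-ratios factors reversed miR-125a (-0.030). With single libraries left out, let-7c ranged from -0.22 to 0.27, miR-98 from -0.035 to 0.027 and miR-125a from -0.14 to 0.093. The log2 ratio differences in MOS ranged from -0.20 to 0.067 for let-7e over miR-125a, from -0.22 to 0.031 for let-7a over miR-100 and from -0.32 to 0.20 for miR-99a over miR-125b, and in LOS from -0.0064 to 0.17 for miR-99b over miR-125a. The cause was not tested.

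Deviations of same-numbered libraries from their group means correlated between -0.08 and 0.18. With 3 libraries in a group, such values cannot show whether library numbers pair the samples. With the replicate block, 0 of the 37 entries were called in LOS against CON, 3 in MOS against CON and 0 in MOS against LOS. Of all 757 entries it called 19, 208 and 215. edgeR and DESeq2 on recovered reads were not run, and the step between low values was checked only on values under 400. Values near 10 rest on few reads, so that let-7a-2-3p and let-7c-3p are the least precise of the tested entries described. mmu-let-7j_R-2, which was fitted only without the filter, is less precise still, with an SE of 0.83.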
